A study of Mus musculus with 6 samples.

Results

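Histone genes were followed in RNA sequencing of bone marrow cells from wild-type and NHD13 mice. They were taken by symbol from the deposited count table, as every entry beginning with Hist1, Hist2, Hist3, Hist4, H2af or H3f3, together with H1f0 and H1fx. This gave 70 of the 17523 entries, of which 59 are replication-dependent histone genes (the Hist entries) and 11 are variant histone genes. There were 3 wild-type (WT) libraries and 3 NHD13 libraries, all from C57BL/6 mice. The NHD13 mice express the fusion gene NUP98-HOXD13, which joins a nuclear pore gene to a homeobox gene, and are used to model myelodysplastic syndrome, in which marrow makes too few healthy blood cells. The cells were sorted from marrow by FACS and the series calls them hematopoietic stem cells (HSCs). The sources used here do not give the sort markers, the age of the mice, the number of mice behind a library, the driver of the fusion or the way RNA was selected for the libraries. Nothing in the labels says that replicates came from separate animals, so p-values measure only the spread between these libraries.

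Histones package DNA into nucleosomes, which consist of the core histones H2A, H2B, H3 and H4, with H1 bound to the linker DNA. The replication-dependent genes lie in clusters, are transcribed mainly in S phase and supply new chromatin during DNA replication. Their mRNAs are unusual in that they typically end in a short conserved stem-loop bound by the protein SLBP and carry no poly(A) tail. Variant histone genes are expressed through the cell cycle from polyadenylated mRNAs, and their products replace core histones at particular sites. Some replication-dependent genes can also give polyadenylated mRNA, which has been described in differentiating cells.

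Both kinds of 3' end were looked up in the annotated transcripts. The stem-loop was searched as 16 bases on the transcript strand (GG, any 3 bases, T, any 4, A, any 3, CC), with the 6 bases on each side able to pair, within 300 bases after the stop codon. It was found in 41 of the 59 replication-dependent genes. Of the 45 with at least 30 annotated bases after the stop codon, this was 91.1%, against 0.539% of 14854 other protein-coding genes of the table. The following stem-loops, with the paired bases in capitals, belong to members whose values are given further on (build GRCm38, which is mm10, read 5′ to 3′ on the gene's strand from GENCODE vM21 transcripts).
Hist1h1c, chr13:23739512-23739527, plus strand: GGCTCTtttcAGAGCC
Hist1h1e, chr13:23621782-23621797, minus strand: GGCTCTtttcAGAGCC
Hist1h3f, chr13:23544932-23544947, plus strand: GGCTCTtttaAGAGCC
Hist1h4d, chr13:23581950-23581965, plus strand: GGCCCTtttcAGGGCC
Hist1h4i, chr13:22040966-22040981, minus strand: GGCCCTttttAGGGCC
H2afx, chr9:44335240-44335255, plus strand: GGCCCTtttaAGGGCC
H2afx was the only variant gene of the 11 in which the stem-loop was found.

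A poly(A) signal was taken as AATAAA or ATTAAA on the transcript strand in the last 40 bases of an annotated transcript. It was found in 14 of the 59 replication-dependent genes and in 9 of the 11 variant genes. Among genes with at least 30 annotated bases after the stop codon, 31.1% of 45 replication-dependent genes had it, against 84% of the other protein-coding genes. Of these 14 genes, 13 also had the stem-loop. The last 30 bases of an annotated transcript of 4 abundant members are shown with the signal in capitals. For H2afy this is a transcript that ends inside the gene, upstream of the gene's own annotated end.
Hist1h1c, chr13:23740338-23740367, plus strand: ttctAATAAAaagcgtttagttttcattca
Hist1h4i, chr13:22040636-22040665, minus strand: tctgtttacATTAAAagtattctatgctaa
Hist2h2be, chr3:96223709-96223738, plus strand: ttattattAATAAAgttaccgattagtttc
H2afy, chr13:56095556-56095585, minus strand: tcttattgagAATAAAaatgatgcaaaggc
A match is a description of the letters, not of a site in use. The 45 replication-dependent genes without the signal include 14 that lack 30 annotated bases after a stop codon, where neither element could be looked for properly. Among these 14 is Hist3h2bb-ps, an annotated processed pseudogene with no annotated coding sequence.

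Total counts per library ran from 12541538 to 14388772, and the row for the NUP98-HOXD13 fusion held 0 counts in each WT library and 185, 179 and 167 counts in NHD13 replicates 1 to 3. Of 12013 genes tested, 30.3% passed the threshold, an adjusted p under 0.05 by edgeR's quasi-likelihood test. NHD13 replicate 1 stood apart from replicates 2 and 3 in these genes and in ribosomal RNA, so results are given with and without it. Xist and Y-linked RNA varied within and between the groups. Xist had 5852, 13700 and 15472 counts in WT and 34, 28 and 9885 in NHD13. Adding the share of Y-linked counts to the model left 2.38% of genes past the threshold. That share was 0.0194%, 0.0109% and 0.0113% in WT and 0.0248%, 0.0280% and 0.0177% in NHD13. It ran in part with genotype, so this model cannot fully separate it from genotype. Of 8 markers of long-term stem cells, 6 were tested, with Mecom higher (log2 2.73, edgeR adjusted p = 0.00105) and Hlf (log2 -1.96, edgeR adjusted p = 0.00295) and Ly6a (log2 -0.65, edgeR adjusted p = 0.0409) lower in NHD13. Kit had 3092 to 3499 counts per library, Procr 1 to 7 and Fgd5 0 to 3. The 9 neutrophil markers summed to 45189 to 60017 CPM (counts scaled by TMM and library size) in WT and 34979 to 37757 CPM in NHD13. Mean sums in WT and NHD13 were 365 and 104 CPM for multipotent progenitor markers and 372 and 27.0 CPM for mast cell and basophil markers. They were 23.0 and 14.5 CPM for B-lymphoid and 5.18 and 3.04 CPM for T and NK markers. Erythroid markers summed to 710, 737 and 789 CPM in WT and 760, 1287 and 1240 CPM in NHD13. The part of these markers in the histone results was not tested. In bulk RNA, fewer cells of a type and less RNA per cell cannot be told apart.

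The replication-dependent histones were scarce in every library, and as a group they did not differ between the genotypes beyond the spread of the libraries. All 59 together took 676, 892 and 919 counts in WT replicates 1, 2 and 3 and 1223, 972 and 873 counts in NHD13. As summed level this was 53.4, 66.3 and 64.0 CPM in WT against 91.7, 67.6 and 60.3 CPM in NHD13. NHD13 replicate 1 was the highest of the 6 libraries, while NHD13 replicates 2 and 3 lay within the WT range or within 2 CPM above it. The means were 61.2 CPM ± 6.9 in WT and 73.2 CPM ± 16.4 in NHD13 (SD, n = 3 each), a ratio of 1.19. The mean of NHD13 replicates 2 and 3 was 1.04 times the WT mean.

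The excess in NHD13 replicate 1 was uneven among the genes and was larger where no poly(A) signal was found. The 45 genes without the signal summed to 18.1, 22.9 and 23.0 CPM in WT and, in NHD13, to 47.4, 23.1 and 20.9 CPM. The 14 genes with the signal summed to 35.3, 43.4 and 41.0 CPM in WT and, in NHD13, to 44.3, 44.5 and 39.4 CPM. Within the NHD13 group, replicate 1 was thus 2.16 times the mean of the other two for genes without the signal and 1.06 times for genes with it. Among the genes without the signal this ratio was 1.96 for the 31 with at least 30 annotated bases after the stop codon and 2.99 for the other 14. The split by signal was chosen with these values known and carries no test.

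**Figure D1:**
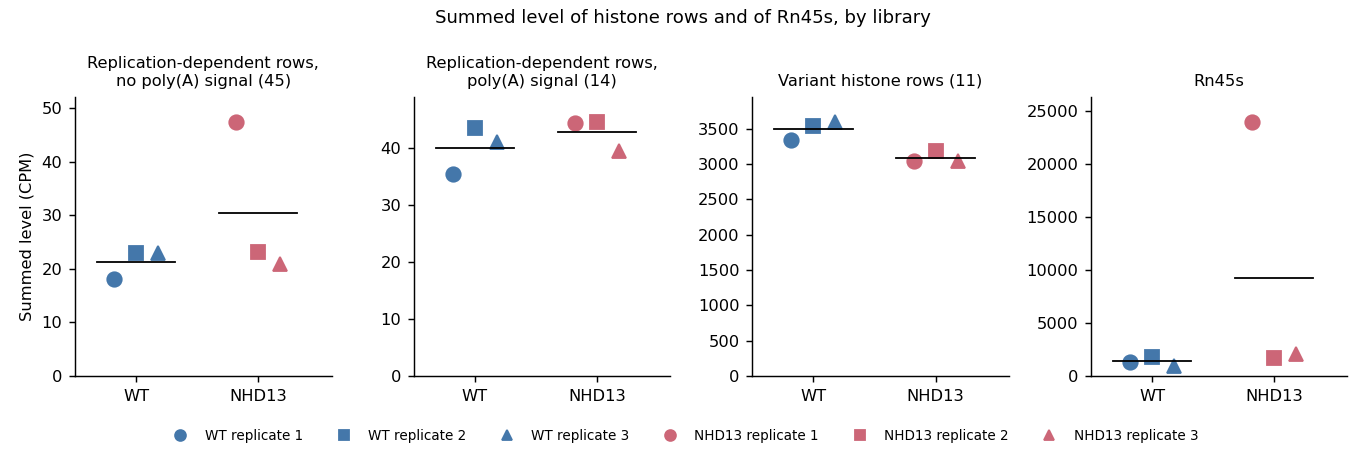
Summed level in CPM (vertical axes, from 0) of the replication-dependent histone rows without and with a poly(A) signal, of the variant histone rows and of Rn45s, with 1 point per library and a line at each group's mean. NHD13 replicate 1 lies at 47.4 CPM for the rows without the signal, above the other 5 libraries at 18.1 to 23.1 CPM, and at 23930 CPM for Rn45s.

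Of 7 other RNAs in the table that lack a poly(A) tail, 3 were also high in NHD13 replicate 1. Rn45s, the precursor of ribosomal RNA, had 17255, 24668 and 14127 counts in WT and 319275, 24428 and 29996 in NHD13, so replicate 1 was far above the other 5 libraries. Rmrp, the RNA of the RNase MRP enzyme, had 4, 4 and 3 counts in WT and 86, 4 and 7 in NHD13. Rpph1, the RNA of RNase P, had 10, 12 and 10 counts in WT and 58, 12 and 6 in NHD13. The other 4 had at most 5 counts in any library and did not set NHD13 replicate 1 apart. In that library Terc and Rnu11 had 0 counts, against 1 to 5 elsewhere, and Rnu12 and Scarna2 had 2. Neither tested gene of the 7, Rn45s (adjusted p = 0.191) or Rpph1 (adjusted p = 0.27), passed edgeR's quasi-likelihood test over the 6 libraries. The sum of the S-phase genes in NHD13 replicate 1 was 0.812 times the mean of NHD13 replicates 2 and 3 and 1.04 times the WT mean. The part of RNA selection in the histone values was not tested.

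The high values of NHD13 replicate 1 ran through most of the genes. NHD13 replicate 1 was the highest of the 6 libraries for 34 of the 59 replication-dependent genes, and for 30 of the 48 with at least 10 counts in all, where 12.9% of all such genes in the table had it highest. It was highest for 26 of the 45 genes without the signal and for 8 of the 14 with it. The small ratio of the summed level in the latter therefore rests on its abundant members, Hist1h1c, Hist1h4i and Hist2h2be, rather than on every member. Scarcer genes with the signal were mixed, and their ratios of replicate 1 to the mean of NHD13 replicates 2 and 3 ran from 0.62 for Hist1h2bp to 6.5 for Hist1h4h, both named after their values were seen.

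**Figure D2:**
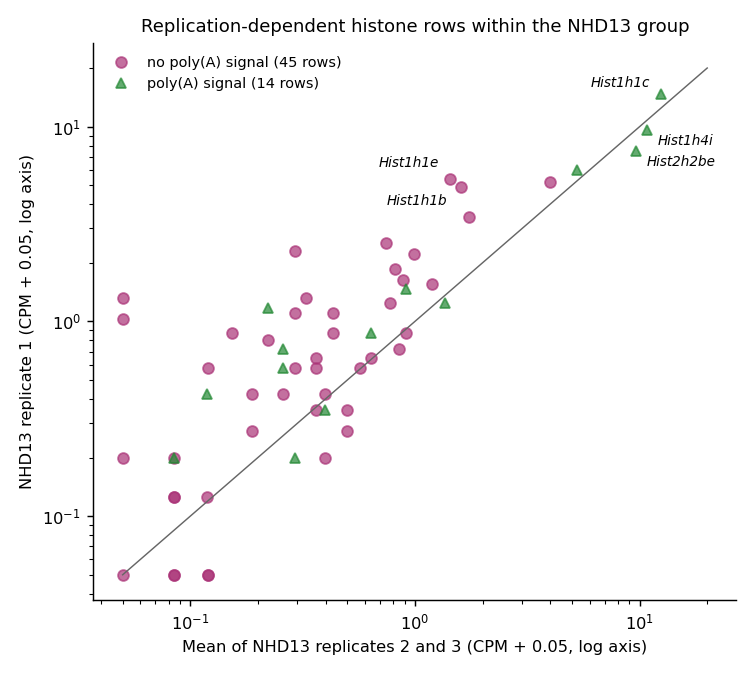
Level of each of the 59 replication-dependent histone rows in NHD13 replicate 1 (vertical) against the mean of NHD13 replicates 2 and 3 (horizontal), in CPM plus 0.05 on log axes, by presence of a poly(A) signal, with the line of equality. Hist1h1b and Hist1h1e lie well above the line, while the abundant Hist1h1c, Hist1h4i and Hist2h2be lie close to it.

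Only 16 of the 59 replication-dependent genes had enough counts to be tested, and 0 of them passed the threshold, against 30.3% of all tested genes. These 16 had a median of 128.5 counts over the 6 libraries and SEs of 0.14 to 0.56, so small changes in them could not have passed. At an unadjusted p under 0.05 there was 1, Hist1h2bj, and DESeq2 and limma-voom also called 0, with 0 and 1 at an unadjusted p under 0.05. The median log2 change of the 16 was 0.31, with 14 above 0 and 2 below, beside a median of 0.00 over all tested genes. Without NHD13 replicate 1 it was 0.14, again with 0 genes past the threshold, against 48.7% of all tested genes (24.2% lower). Without replicate 1 of both groups it was 0.01, and 2 genes passed, both lower, against 53.3% of all tested genes (26.6% higher). Single values of these genes are uncertain in a further way, because their coding sequences are close copies of each other. The nearest other histone gene had a median identity of 98.15% over 58 genes (range 72.55% to 99.75%), and a median of 80.2% of their 30-base stretches occurred in another histone gene. The sources used here do not say how reads that match several copies were assigned.

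Among the tested genes, the H1 linker histone genes Hist1h1e and Hist1h1b had high values in NHD13 replicate 1. Hist1h1b (chr13:21779883-21780625) was at 1.58, 1.64 and 1.46 CPM in WT and 4.87, 1.6 and 1.52 CPM in NHD13. Its log2 change of 0.76 (SE 0.46, edgeR quasi-likelihood adjusted p = 0.244) did not pass and was 0.00 without NHD13 replicate 1. Hist1h1e (chr13:23620629-23622558), which overlaps Hist1h2be on the same strand, was at 1.42, 1.26 and 1.53 CPM in WT and 5.32, 1.81 and 0.967 CPM in NHD13. For both genes the high value was that of NHD13 replicate 1 alone, and without it the change of Hist1h1e went from a log2 of 0.92 (SE 0.56, edgeR adjusted p = 0.244) to -0.02.

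Hist1h1c (chr13:23738808-23740367) was the H1 gene with the most counts and has both the stem-loop and the poly(A) signal printed above. It was at 11.1, 14.1 and 13.9 CPM in WT and 14.7, 12.7 and 12.1 CPM in NHD13. The groups overlapped and NHD13 replicate 1 was only slightly the highest library (log2 0.01, SE 0.14, edgeR adjusted p = 0.953). Hist1h1a and Hist1h1d, without a signal, reached 1.80 and 3.37 CPM in NHD13 replicate 1 and stayed at or below 0.818 and 1.88 CPM in the other libraries.

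Of the 14 H2A genes, which encode a core histone paired with H2B, 2 were tested. Hist3h2a (chr11:58954685-58956830), in a small cluster on chromosome 11, was at 4.74, 6.40 and 4.46 CPM in WT and 5.92, 6.32 and 4.07 CPM in NHD13. The groups overlapped (log2 0.06, SE 0.22, edgeR adjusted p = 0.849). Hist1h2ae had 3, 11 and 11 counts in WT and 11, 10 and 7 in NHD13 (log2 0.11, SE 0.46, edgeR adjusted p = 0.88). Its lowest library was WT replicate 1.

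The 16 H2B genes held 7 of the 16 tested replication-dependent genes. Hist1h2bc (chr13:23684199-23692908) was at 4.66, 6.17 and 5.36 CPM in WT and 5.17, 3.96 and 3.94 CPM in NHD13. NHD13 replicates 2 and 3 lay below every WT library and NHD13 replicate 1 lay among them (log2 -0.31, SE 0.19, edgeR adjusted p = 0.241). Without replicate 1 of both groups Hist1h2bc passed as lower (log2 -0.54, edgeR adjusted p = 0.0282), as did Hist1h2bg (log2 -1.08, SE 0.39, edgeR adjusted p = 0.0286), where 26.7% of tested genes were called lower.

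Hist2h2be (chr3:96221119-96223738), which ends in a poly(A) signal, was at 7.90, 8.93 and 9.19 CPM in WT and 7.42, 9.66 and 9.53 CPM in NHD13. Here NHD13 replicate 1 was the lowest library (log2 0.03, SE 0.15, edgeR adjusted p = 0.89). Hist2h2bb (chr3:96269752-96270132), on the same chromosome, was at 0.632, 0.818 and 1.18 CPM in WT and 2.17, 1.32 and 0.553 CPM in NHD13 (log2 0.59, SE 0.49, edgeR adjusted p = 0.384). For that gene NHD13 held both the highest and the lowest library.

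Hist1h2bj (chr13:22043214-22043676) was the only tested replication-dependent gene whose groups did not overlap, against 46.1% of all tested genes. It was at 0.790, 0.744 and 0.836 CPM in WT and 1.5, 1.11 and 1.17 CPM in NHD13. Each NHD13 library lay above each WT library (log2 0.66, SE 0.28, edgeR adjusted p = 0.102). Over all 59 genes the groups did not overlap for 7, a count without a like share, since the 46.1% covers tested genes only. The 6 untested ones, named after their values were seen, were Hist1h2bm, Hist1h3d, Hist1h4b, Hist1h4c and Hist1h4d, higher in NHD13, and Hist1h2an. For Hist1h2an the order rests on scaling alone, since WT replicate 3 and NHD13 replicate 3 both had 1 count.

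None of the 12 H3 genes had enough counts to be tested, and as a class they were highest in NHD13 replicate 1. Their sum was 1.90, 2.38 and 2.79 CPM in WT and 6.75, 2.57 and 2.69 CPM in NHD13. Hist1h3f, named after its values were seen, had 3, 5 and 3 counts in WT and 30, 3 and 4 in NHD13. Outside NHD13 replicate 1 it was near the floor of 3 counts in all libraries.

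Of the 12 H4 genes 2 were tested. Hist1h4i (chr13:22040636-22041362) was at 8.29, 9.97 and 9.12 CPM in WT and 9.52, 11.7 and 9.67 CPM in NHD13. The groups overlapped, and NHD13 replicate 2 was the highest library (log2 0.18, SE 0.14, edgeR adjusted p = 0.37). Hist4h4 (chr6:136801553-136804415) was at 1.18, 0.893 and 1.39 CPM in WT and 1.20, 1.25 and 1.38 CPM in NHD13 (log2 0.14, SE 0.27, edgeR adjusted p = 0.731). Hist1h4d, untested and named after its values were seen, had 7, 5 and 8 counts in WT and 33, 11 and 9 in NHD13, so that all 3 NHD13 libraries lay above WT but replicate 1 most. Hist1h4f and Hist1h4k, also named in this way, had 17 and 13 counts in NHD13 replicate 1 and 0 in NHD13 replicates 2 and 3.

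Without the poly(A) signal, every class was higher in NHD13 replicate 1 than the WT mean, by 2.96-fold for H1, 2.42-fold for H2A, 1.41-fold for H2B, 3.09-fold for H3 and 4.39-fold for H4. The rows of NHD13 replicates 2 and 3 were between 0.92 and 1.29 times the WT mean in these classes. No class was therefore left out of the excess, and H2B had the smallest. The H2B value is weighted by Hist1h2bc, which was 0.958 times its WT mean in NHD13 replicate 1. That gene held 5.40 of 10.9 CPM in the WT mean and 5.17 of 15.4 CPM in NHD13 replicate 1.

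**Figure D3:**
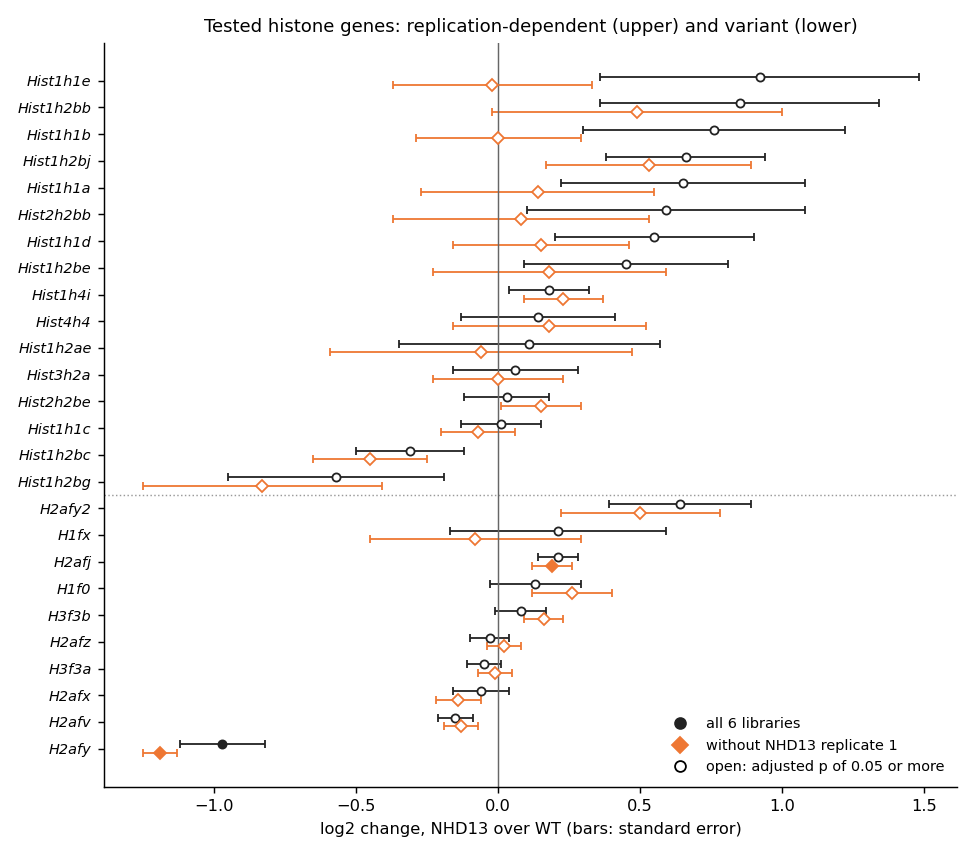
Fitted log2 change, NHD13 over WT (horizontal axis), of the 16 tested replication-dependent and the 10 tested variant histone genes over all 6 libraries and without NHD13 replicate 1, with bars of 1 SE and filled points past the threshold. The replication-dependent genes have a median of 0.31 with all libraries and 0.14 without NHD13 replicate 1, and H2afy lies at -0.97 and -1.19.

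The variant histones had far more counts, and H2afy was the single histone gene that passed the threshold. Of the 10 tested, 1 was lower and 0 were higher in NHD13, against 15.3% lower and 15.0% higher among all tested genes. The 11 genes summed to 3337, 3542 and 3596 CPM in WT and 3040, 3185 and 3040 CPM in NHD13. Every NHD13 library lay below every WT library (3492 CPM ± 137 and 3088 CPM ± 83.5, SD, n = 3 each), and the H2afy means alone differed by about as much. The median log2 change of the 10 was 0.03, with 5 above 0 and 5 below, and -0.02 with upper-quartile scaling. H2afy3, an annotated processed pseudogene, had 1, 2 and 1 counts in WT and 1, 4 and 7 in NHD13 and was not tested.

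H2afy (chr13:56073619-56136361, minus strand) encodes macroH2A1, an H2A variant with a large non-histone macro domain that is enriched on the inactive X chromosome and at silenced genes. It was at 805, 845 and 811 CPM in WT and 536, 346 and 372 CPM in NHD13. The 3 WT libraries were close together and all above NHD13, where replicate 1 was the highest. The mean fell from 820 CPM ± 21.5 to 418 CPM ± 103 (SD, n = 3 each), which is 1.96-fold lower (log2 -0.97, SE 0.15, edgeR quasi-likelihood adjusted p = 0.00286). Without NHD13 replicate 1 the log2 change was -1.19 (SE 0.06, edgeR adjusted p = 1.71e-08). With the share of Y-linked counts in the model its size held at -0.98 (SE 0.25) but it no longer passed (edgeR adjusted p = 0.0817). H2afy overlaps Gm47071 on the opposite strand, and the sources used here do not say whether counting used the strand.

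H2afy2, which encodes the related macroH2A2, was scarce and did not move with it. It was at 2.13, 1.79 and 1.46 CPM in WT and 3.30, 2.15 and 2.90 CPM in NHD13. All NHD13 libraries lay above WT, NHD13 replicate 2 only just (log2 0.64, SE 0.25, edgeR adjusted p = 0.0903). The gene overlaps Aifm2 on the opposite strand.

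H2afz encodes H2A.Z, a variant found at promoters and enhancers, and was the most abundant histone gene. It was at 1007, 1059 and 1123 CPM in WT and 980, 1109 and 1044 CPM in NHD13 (log2 -0.03, SE 0.07, edgeR adjusted p = 0.807). H2afv, the second H2A.Z gene, was at 76.7, 80.6 and 79.6 CPM in WT and 69.9, 73.0 and 71.0 CPM in NHD13. The groups of H2afz overlapped, and those of H2afv did not (log2 -0.15, SE 0.06, edgeR adjusted p = 0.105). H2afv passed only with upper-quartile scaling (log2 -0.19, edgeR adjusted p = 0.0484), under which 29.6% of all tested genes passed.

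H2afx encodes H2A.X, which is phosphorylated next to DNA breaks, and carries both the stem-loop printed above and a poly(A) signal (ATTAAA). It was at 162, 166 and 137 CPM in WT and 164, 146 and 135 CPM in NHD13, with overlapping groups (log2 -0.06, SE 0.10, edgeR adjusted p = 0.649). NHD13 replicate 1 was not above the WT range for this gene. H2afj was at 61.4, 66.5 and 62.3 CPM in WT and 75.5, 75.4 and 68.9 CPM in NHD13. Each NHD13 library was above each WT library, but the change did not pass (log2 0.21, SE 0.07, edgeR adjusted p = 0.0554) and did so only without NHD13 replicate 1 (log2 0.19, edgeR adjusted p = 0.0433).

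H3f3a and H3f3b encode the same protein, H3.3, which is laid down outside replication. H3f3a was at 579, 598 and 629 CPM in WT and 555, 613 and 580 CPM in NHD13 (log2 -0.05, SE 0.06, edgeR adjusted p = 0.595). H3f3b was at 608, 672 and 710 CPM in WT and 615, 769 and 713 CPM in NHD13 (log2 0.08, SE 0.09, edgeR adjusted p = 0.566). The groups of both genes overlapped. H3f3a made up 47.0% to 48.8% of the counts of the pair in WT and 44.4% to 47.4% in NHD13.

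The linker variants did not pass. H1f0, the H1.0 gene that is known to rise in cells that leave the cycle, was at 32.5, 48.9 and 41.4 CPM in WT and 36.7, 47.5 and 50.0 CPM in NHD13 (log2 0.13, SE 0.16, edgeR adjusted p = 0.571). H1fx was at 2.37, 3.5 and 1.25 CPM in WT and 3.82, 2.43 and 2.0 CPM in NHD13 (log2 0.21, SE 0.38, edgeR adjusted p = 0.701). The groups of both genes overlapped.

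**Figure D4:**
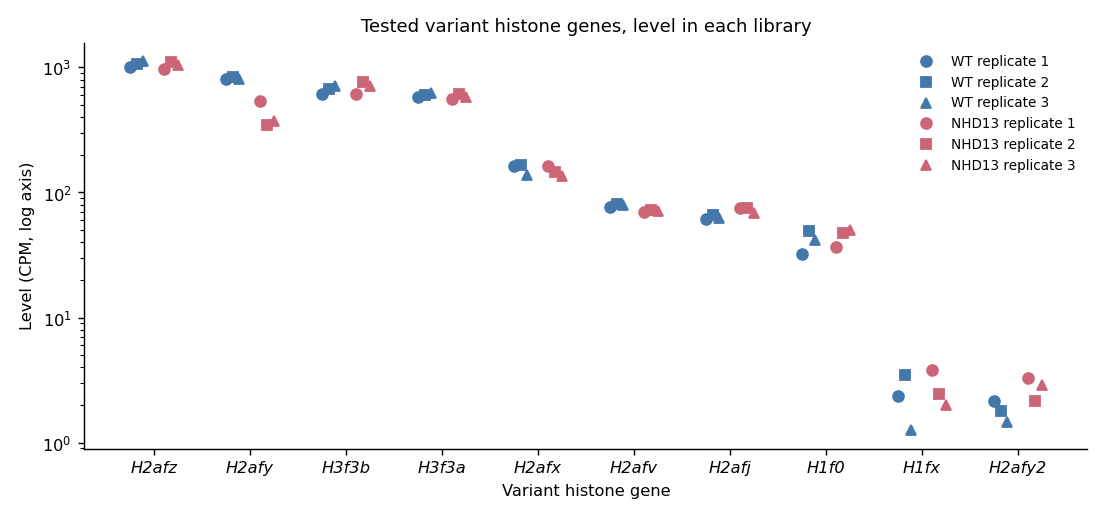
Level in CPM on a log axis of each tested variant histone gene in each WT and NHD13 library, 1 point per library. H2afy lies at 805 to 845 CPM in WT and at 346 to 536 CPM in NHD13, while the libraries of H2afz, H3f3a and H3f3b overlap between the groups.

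The lower H2afy shifted the make-up of the H2A variants. H2afy held 38.1%, 38.1% and 36.6% of their CPM in WT and 29.3%, 19.7% and 22% in NHD13. The share of H2afz, whose own level did not pass the test, was 47.6%, 47.7% and 50.7% in WT and 53.6%, 63.3% and 61.6% in NHD13. These shares add the same levels and are no separate evidence. Replication-dependent genes made up 1.58%, 1.84% and 1.75% of all histone CPM in WT and 2.93%, 2.08% and 1.94% in NHD13.

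Per kilobase of exon, mean levels over the 6 libraries ran from H2afz at 593 CPM per kb through H3f3b at 229, H3f3a at 169, H2afx at 110 and H2afy at 90.9 CPM per kb. H2afv followed at 46.0, H2afj at 37.3 and H1f0 at 20.8 CPM per kb. The highest replication-dependent gene was Hist1h4i at 13.4 CPM per kb, followed by Hist1h1c at 8.39 and Hist1h2bc at 4.22. The median was 46.0 CPM per kb for the 11 variants and 0.48 for the 59 replication-dependent genes, so the variants dominated the histone reads. Among replication-dependent genes it was 0.419 for the 14 with a poly(A) signal and 0.516 for the 45 without. The parts of RNA selection and of reads with several matches in the gap between variants and replication-dependent genes were not tested. The order was taken over both groups and its neighbours were not tested against each other.

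Of 21 tested genes of histone mRNA synthesis and 3' end processing, 6 rose and 0 fell, with a median log2 change of 0.14 beside 0.00 over all tested genes, where 15.0% rose. Those that rose were Cpsf2, Ncbp1, Snrpb, Snrpg, Srrt and Upf1. Slbp, Npat, Casp8ap2, Hinfp, Lsm10, Lsm11 and Zfp473 were among those that did not pass. Zfp473, named after its values were seen, had a log2 change of -0.64 (SE 0.26, edgeR adjusted p = 0.0911). It had at most 53 counts in any library and passed as lower without NHD13 replicate 1. Cpsf2, a subunit of the cleavage complex, was at 157, 152 and 156 CPM in WT and 174, 213 and 218 CPM in NHD13 (log2 0.38, SE 0.09, edgeR adjusted p = 0.0142). Upf1, a helicase needed for histone mRNA decay, had a log2 change of 0.35 (SE 0.07, edgeR adjusted p = 0.0074), and Snrpb, which encodes an Sm protein shared by spliceosomal particles and the U7 particle of histone processing, one of 0.27 (SE 0.07, edgeR adjusted p = 0.0172).

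Slbp, the stem-loop binding protein, was at 213, 220 and 235 CPM in WT and 216, 269 and 272 CPM in NHD13. NHD13 replicate 1 lay within the WT range and replicates 2 and 3 above it (log2 0.18, SE 0.10, edgeR adjusted p = 0.18), and without NHD13 replicate 1 the rise passed (log2 0.29, edgeR adjusted p = 0.00129). Npat, the activator of histone gene transcription, had a log2 change of 0.14 (SE 0.08, edgeR adjusted p = 0.201), and Casp8ap2, another factor of the histone locus body, one of 0.09 (SE 0.07, edgeR adjusted p = 0.306).

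Of 31 tested histone chaperones and exchange factors, 11 were higher and 0 lower, against 15.0% of all tested genes higher, with a median log2 change of 0.16. Ipo4, an importin that carries new H3 and H4 into the nucleus, was at 37.4, 35.6 and 31.3 CPM in WT and 51.7, 55.6 and 57.5 CPM in NHD13. Each NHD13 library was above each WT library (log2 0.66, SE 0.09, edgeR adjusted p = 0.00166). Daxx, a chaperone of H3.3, had a log2 change of 0.38 (SE 0.07, edgeR adjusted p = 0.0071), and Supt16, a subunit of the FACT complex, one of 0.32 (SE 0.07, edgeR adjusted p = 0.0105). The others that rose were Asf1a, Cabin1, Ep400, Hira, Nasp, Npm1, Tonsl and Vps72.

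S-phase genes, whose products act when replication-dependent histones are made, rose in 11 of 28 with 0 lower, against 15.0% of all tested genes higher, at a median log2 change of 0.26. Ccne1, the cyclin E1 gene, was at 64.5, 66.6 and 67.9 CPM in WT and 83.5, 144 and 135 CPM in NHD13 (log2 0.87, SE 0.18, edgeR adjusted p = 0.00851). NHD13 replicate 1 was the lowest of its group. Dut, which keeps uracil out of DNA, rose by a log2 of 0.45 (SE 0.09, edgeR adjusted p = 0.00635) and Cdt1, which licenses origins, by 0.43 (SE 0.10, edgeR adjusted p = 0.0113). The S-phase genes summed to 6516, 6937 and 7166 CPM in WT and 7176, 8934 and 8737 CPM in NHD13. NHD13 replicate 1, highest in the replication-dependent genes without a poly(A) signal, was thus lowest in this sum within NHD13 only. It was not below any WT library. The relation between these sums was not tested.

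Of 20 G2-M genes, 2 were higher and 0 lower, a share below the 15.0% of all tested genes that were higher, with a median log2 change of 0.13. They were Plk1 (log2 0.36, SE 0.08, edgeR adjusted p = 0.00904) and Ccnb1 (log2 0.38, SE 0.08, edgeR adjusted p = 0.012). Cenpa, the centromeric H3 variant gene whose symbol lies outside the histone naming used here, was at 132, 120 and 127 CPM in WT and 121, 162 and 155 CPM in NHD13 (log2 0.20, SE 0.11, edgeR adjusted p = 0.185), and passed without NHD13 replicate 1 (log2 0.32, edgeR adjusted p = 0.000842). These gene counts depend on settings. Without NHD13 replicate 1, 9 processing genes, 18 chaperones, 23 S-phase and 7 G2-M genes were higher, with 24.5% of all tested genes higher. In that setting 1 processing gene, Zfp473, was lower, with 24.2% of all tested genes lower. With the share of Y-linked counts in the model 0 of each list passed, with 0.924% of all tested genes higher.

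**Figure D5:**
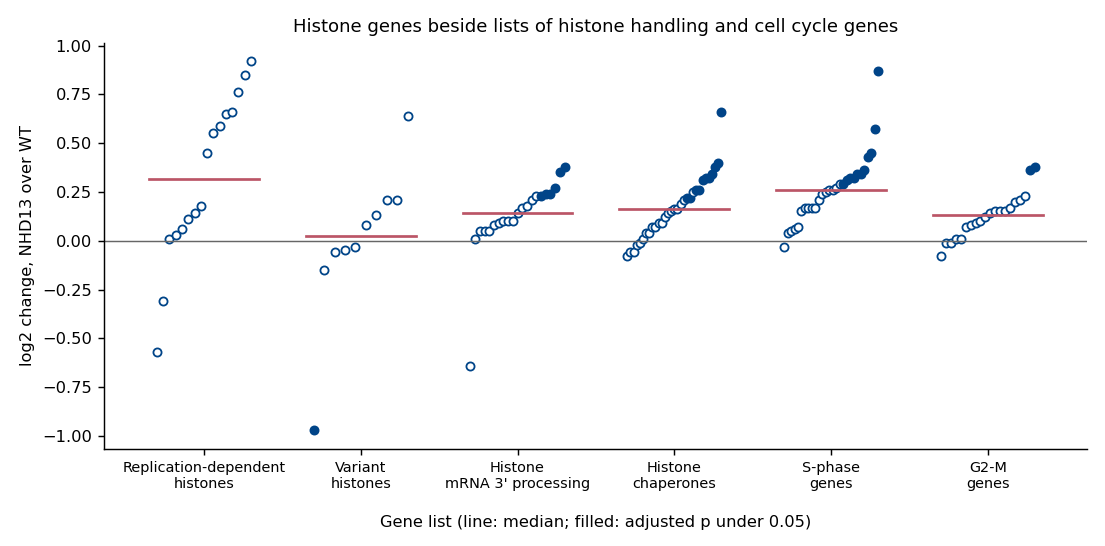
Fitted log2 change, NHD13 over WT, of each tested replication-dependent and variant histone gene and of each tested gene of histone mRNA processing, histone chaperones, S phase and G2-M, with 1 point per gene, filled where past the threshold, and a line at each median. The medians of the last 4 lists lie at 0.14, 0.16, 0.26 and 0.13.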

How the data were processed

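RNA sequencing counts were analysed for 3 WT and 3 NHD13 libraries. The values deposited by the authors are raw read counts per gene and library. The submitters' processing notes name Bowtie2 2.2.1 together with HTSeq 0.5.4p3 and the mouse build mm10. The sources used here do not give the annotation, strand setting, RNA selection or handling of reads with several matches. Such reads bear most on the near-identical replication-dependent genes.

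Each column was assigned to a sample by its name, and 0 were left out. The histone genes and the gene lists were chosen with earlier results of these data known. edgeR 4.0.16 in R 4.3.3 was fitted to all genes kept by filterByExpr at a minimum count of 10, which left 12013 and set 5510 aside, with TMM scaling, the quasi-likelihood F test (robust, two-sided) and Benjamini-Hochberg adjustment over all tested genes at 0.05. Each SE was derived from the log2 change and its F statistic (log2 change over the root of F). The procedure was tested on simulated data. CPM values are TMM-scaled. Intervals are not given, and the floor of 3 counts covers counting error only. Genes were named by rule: every tested variant, the 3 tested genes with the most CPM in each replication-dependent class, up to 3 per list and direction with the lowest p past the threshold, and Slbp, Npat, Casp8ap2 and Cenpa. Genes outside it are said to be named after their values were seen. Others are given because a count of 5 or fewer or the excess in NHD13 replicate 1 turned on them. Positions, exon lengths and 3' ends come from GENCODE vM21 (GRCm38), in which all 70 genes were found by symbol. The alternatives were other scalings, no filter, DESeq2 1.42.0, limma-voom (limma 3.58.1), a replicate block, the Y-linked share as a covariate and leaving out libraries. Leaving out the Rn45s row was added after seeing the data.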

Additional observations from a re-analysis of the deposited data

How the results depend on the processing

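Of the histone results, H2afy stayed lower under each alternative and passed in each but the Y-linked covariate, where 0 variant genes were lower. With upper-quartile scaling 2 variant genes were lower, without NHD13 replicate 1 there was 1 higher, and without replicate 1 of both groups 2 replication-dependent genes were lower. The median log2 change of tested replication-dependent genes (0.31) was 0.59 with no filter, 0.01 without replicate 1 of both groups and 0.14 to 0.62 when 1 library was left out. That of variants (0.03) was -0.02 with upper-quartile scaling, 0.08 with no filter, -0.03 without replicate 1 of both groups and -0.04 to 0.04 when 1 library was left out. The log2 ratio of the summed replication-dependent level (0.26) was -0.03 without replicate 1 of both groups and 0.06 to 0.38 when 1 library was left out. Over all genes, 111 were higher and 175 lower with the covariate, 3244 and 3245 without replicate 1 of both groups, and 760 to 3012 higher and 957 to 2966 lower when 1 library was left out. The cause was not tested. With upper-quartile scaling 4 processing, 7 chaperone, 8 S-phase and 2 G2-M genes were higher, with 11.9% of all tested genes higher. Of the values for 35 named genes, 524 kept their call, 28 lost it and 8 gained it, with 0 reversed.

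Nothing in the labels says whether the replicate numbers pair the samples, and the values do not settle it. Deviations of same-numbered libraries correlated at 0.277, 0.0954 and 0.223. For NHD13 replicates 1 and 3 this was the highest correlation with a WT library, while NHD13 replicate 2 was closest to WT replicate 3 (0.218). With a replicate block 2007 genes were higher and 2233 lower, 0 replication-dependent genes passed, 1 variant was lower, H2afy (log2 -1.0, edgeR adjusted p = 0.000851), and the medians were 0.31 and 0.02. Depth limits the replication-dependent genes most, since 43 of 59 were untested and a count of 0 allows up to 3 counts.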

Other observations

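The excess of NHD13 replicate 1 in summed level differed between histone clusters, but these sums are weighted by a few abundant genes. Relative to the mean of NHD13 replicates 2 and 3, the summed level of that library was 1.75 times for the 28 genes of the distal chromosome 13 block, 1.32 times for the 18 genes of the proximal chromosome 13 block and 1.02 times for the 9 genes on chromosome 3. Abundant genes with a poly(A) signal weigh on these ratios. On chromosome 3, Hist2h2be alone held 7.42, 9.66 and 9.53 CPM of sums of 11.4, 11.7 and 10.7 CPM in NHD13. In the proximal block, Hist1h4i held 9.52, 11.7 and 9.67 CPM of 22.6, 17.9 and 16.4 CPM. In the distal block, Hist1h1c held 14.7, 12.7 and 12.1 CPM of 50.1, 29.9 and 27.5 CPM. Neither the difference between clusters nor the part of position in it was tested.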
